A study of Mus musculus with 10 samples.

Results

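The 10 genes described here encode the stored proteins of neutrophils. They were taken by symbol from the 33393 genes in the transcript tables of sorted mouse blood stem cells, and the estimates of all transcripts of each gene were added up. Mpo, Elane, Prtn3 and Ctsg are primary granule genes. S100a8, S100a9, Ltf, Camp, Ngp and Lcn2 are switched on later in neutrophil maturation.

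RNA-seq was performed on CD34- HSCs, the quiescent stem cell fraction, sorted as Lin- Sca-1+ c-Kit+ CD34- Flt3- cells from bone marrow of single C57BL/6 mice at 8 weeks of age. Controls were Reg1flox/flox mice, whose gene for the RNA-degrading enzyme Regnase-1 (Zc3h12a) is flanked by recombination sites but was not cut. Reg1Δ/Δ mice carried the same floxed alleles and also Vav1-iCre, a recombinase that is active in all blood cells from early development, so that the loss was not confined to stem cells. The sample names and the study's numbers of mice separate 2 experiments, with 3 control and 3 Reg1Δ/Δ mice in experiment 1 and 2 of each in experiment 2. The comparison asks how stem cells change without Regnase-1.

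Values are TPM, the share of each library's RNA that a transcript holds once its length is allowed for, in parts of a fixed total that is the same in every library, so read depth is unknown. Zc3h12a went against the labels: it was at 1.83, 1.28 and 1.60 TPM in the controls of experiment 1 and at 3.54, 2.08 and 2.51 TPM in the libraries labelled Reg1Δ/Δ. The values of experiment 2 were 1.48 and 6.07 TPM against 10.3 and 8.52 TPM. The groups did not overlap in either experiment and the libraries labelled Reg1Δ/Δ were higher (log2 fold change 0.83 ± 0.28 SE, limma adjusted p = 0.0314). The change was 1.73 with quantile normalization (limma adjusted p = 0.000174) and 1.08 with median-of-ratios scaling (limma adjusted p = 0.00629). Neither experiment alone passed the threshold (limma adjusted p = 0.0527 and 0.265). Whether these reads lie in the deleted part cannot be read from sums over transcripts, and all directions here follow the labels. Of 8 stem cell markers, 7 were lower in the libraries labelled Reg1Δ/Δ, against 37.9% of all 12874 genes tested (with quantile normalization 6, against 20.5%). Of these markers 2, Procr and Fgd5, reached 1 TPM in at most 1 library labelled Reg1Δ/Δ. Both entered the test through the controls, which fixes their direction, so their calls lend no support. Procr, the surface receptor EPCR, was at 19.8 to 37.3 TPM in the controls and at 0.108 to 1.36 TPM in the libraries labelled Reg1Δ/Δ. Kit, a receptor used in the sort, was at 284 to 367 TPM against 95.6 to 116 TPM in experiment 1. Ly6a, the Sca-1 gene used in the sort, missed the threshold (log2 fold change 0.92, limma adjusted p = 0.155), and was higher in experiment 2 alone (0.74, limma adjusted p = 0.0366). Ly6a was at 50.9 TPM in replicate 2 labelled Reg1Δ/Δ of experiment 1 and at 449 and 369 TPM in the other libraries of that group. The stem cell marker Procr was thus near 0 in the libraries labelled Reg1Δ/Δ while Kit and Ly6a stayed detectable.

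Neutrophils fill their granules in order. Promyelocytes make the azurophil, or primary, granules, which hold myeloperoxidase and the serine proteases neutrophil elastase, proteinase 3 and cathepsin G, and transcription of these genes already begins in granulocyte-monocyte progenitors. Myelocytes and metamyelocytes then make the specific, or secondary, granules with lactoferrin, cathelicidin, neutrophilic granule protein and lipocalin-2. S100a8 and S100a9 encode the pair of calcium-binding proteins of calprotectin, which fills the cytosol of maturing neutrophils rather than a granule. The transcription factors PU.1, C/EBPα and C/EBPε act on many of these genes.

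Matches to a pair of short motifs were spread unevenly over the promoters of these genes. RefSeq promoter windows of GRCm38.p6, from 250 bases before to 50 bases after the start, were found for all 10 genes. The letters GAGGAAGT, a form of the PU.1 (Spi1) binding motif, were searched on both strands and were present in 4 of the 10 genes and in 3.69% of all 27025 genes with windows of the same length (3.20% of 32851 windows). The palindromic letters TTGNNCAA, a form of the C/EBP motif, were present in 3 of the 10 and in 7.36% of all genes (6.40% of windows). The motifs do not overlap each other, they were chosen after the promoters of these genes had been seen, and a match is a run of letters and not a bound site. The 40-base stretches around the matches are shown because the PU.1-type match occurred in 3 of the 4 primary genes and the C/EBP-type match in later genes; capitals mark the match and each stretch is written 5′ to 3′ on the gene's strand.
Mpo, chr11:87793544-87793583, plus strand: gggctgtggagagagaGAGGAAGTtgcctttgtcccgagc
Elane, chr10:79886211-79886250, plus strand: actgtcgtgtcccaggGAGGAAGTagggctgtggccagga
Prtn3, chr10:79879556-79879595, plus strand: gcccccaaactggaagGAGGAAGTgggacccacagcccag
S100a8, chr3:90668883-90668922, plus strand, with the match on the other strand: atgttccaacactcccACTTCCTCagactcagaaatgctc
Lcn2, chr2:32387932-32387971, minus strand: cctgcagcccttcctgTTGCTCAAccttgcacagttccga
Ltf, chr9:111019201-111019240, plus strand: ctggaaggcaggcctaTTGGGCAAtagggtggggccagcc
Ngp, chr9:110419654-110419693, plus strand, the first of 3 matches: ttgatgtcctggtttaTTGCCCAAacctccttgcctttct
Ctsg, Camp and S100a9 held neither run of letters in these windows.

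All 6 later genes were lower in the libraries labelled Reg1Δ/Δ, in both experiments. The mean TPM of the controls was 10.9 to 14.3 times that of the libraries labelled Reg1Δ/Δ in experiment 1, and 38.6 to 77.2 times in experiment 2. The ratio of experiment 1 rested on replicate 2 labelled Reg1Δ/Δ, without which it was 35.6 to 145. Both experiments fitted together with limma, with the experiment as a covariate, called 7 of the 10 genes lower at an adjusted p under 0.05, against 37.9% of all genes. The 7 genes were the 6 later genes and Prtn3, and with protein-coding transcripts only the count was 6, without Prtn3. Of the 10 genes, 0 were called higher, at the adjusted threshold, against 15% of all genes, and at an unadjusted p under 0.05, against 17.3%. The median log2 fold change was −5.23 over the later genes, −1.61 over the primary genes and −0.25 over all genes. A fall in a bulk sample can mean fewer cells of a type or less RNA per cell, and these cannot be told apart.

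S100a8 is a chemoattractant alarmin and the partner of S100a9. S100a8 was at 937, 1499 and 386 TPM in the controls of experiment 1 and at 23.2, 185 and 3.56 TPM in the libraries labelled Reg1Δ/Δ. Experiment 2 gave 2682 and 3410.5 TPM against 42.3 and 69.3 TPM. The groups did not overlap in either experiment, and replicate 2 labelled Reg1Δ/Δ of experiment 1 was the highest of its group by far. The group means were 941 ± 557 (SD, n = 3) against 70.7 ± 99.7 TPM, and 3046 ± 515 (SD, n = 2) against 55.8 ± 19.0 TPM. The log2 fold change over both experiments was −5.25 ± 0.85 (SE, limma adjusted p = 0.000635).

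S100a9, which lies 22.6 kb from S100a8 on chromosome 3 (chr3:90692632-90695721, minus strand), had the largest log2 fold change of the 10 genes over both experiments. S100a9 was at 614, 666 and 237 TPM in the controls of experiment 1 and at 13.7, 92.3 and 0.196 TPM in the libraries labelled Reg1Δ/Δ. Experiment 2 gave 5864 and 6262 TPM against 70.1 and 107 TPM. As for S100a8, every control exceeded every library labelled Reg1Δ/Δ, and within experiment 1 replicate 2 was the highest and replicate 3 the lowest of the labelled Reg1Δ/Δ group. The change was −5.62 ± 0.96 on the log2 scale (SE, limma adjusted p = 0.00088).

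**Figure D1:**
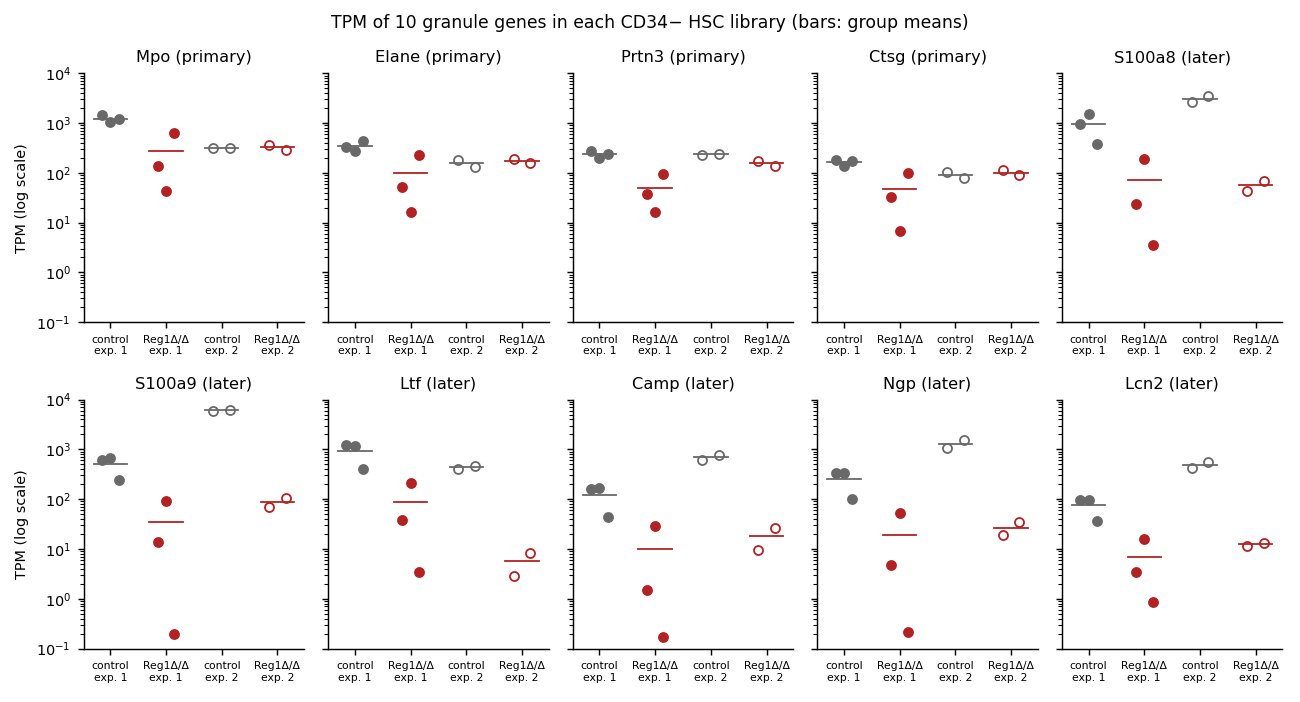
TPM on a log scale of each of the 10 genes, 1 point per library, with bars at the group means (filled, experiment 1 with 3 mice per group; open, experiment 2 with 2 per group; grey, control; red, labelled Reg1Δ/Δ). The later genes of the libraries labelled Reg1Δ/Δ lie below all controls in both experiments, whereas Mpo, Elane and Ctsg overlap between the groups in experiment 2.

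Ltf encodes lactoferrin, an iron-binding protein of the specific granule. Ltf was at 1219, 1191 and 398 TPM in the controls of experiment 1 and at 38.2, 215 and 3.51 TPM in the libraries labelled Reg1Δ/Δ. Experiment 2 gave 394 and 472 TPM against 2.85 and 8.37 TPM, the largest ratio of means of the 10 genes in that experiment. The groups did not overlap in either experiment. Ltf changed by −5.25 ± 0.91 on the log2 scale (SE, limma adjusted p = 0.000964).

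Camp encodes the only cathelicidin of the mouse, an antimicrobial peptide precursor, and Ngp a cystatin-like granule protein. Camp was at 157, 168 and 44.3 TPM in the controls of experiment 1 and at 1.53, 28.8 and 0.169 TPM in the libraries labelled Reg1Δ/Δ. Camp stood at 622 and 768 TPM against 9.52 and 26.5 TPM in experiment 2. All controls were again above all libraries labelled Reg1Δ/Δ (log2 fold change −4.89 ± 0.81 SE, limma adjusted p = 0.000735). Ngp was at 331, 342 and 99.5 TPM against 4.75, 52.1 and 0.212 TPM in experiment 1. For Ngp the values of experiment 2 were 1060.6 and 1519 TPM against 18.8 and 34.9 TPM. The groups did not overlap, with a log2 fold change of −5.21 ± 0.87 (SE, limma adjusted p = 0.000744). Camp, Ngp and Ltf lie within 1195 kb of each other on chromosome 9.

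Lcn2 encodes lipocalin-2, which binds bacterial siderophores. Lcn2 was at 94.8, 97.2 and 36.7 TPM in the controls of experiment 1 and at 3.43, 16.0 and 0.853 TPM in the libraries labelled Reg1Δ/Δ. Experiment 2 gave 416 and 547 TPM against 11.7 and 13.1 TPM. The groups did not overlap, and Lcn2 had the smallest change of the later genes and the smallest standard error (−4.33 ± 0.57 SE on the log2 scale, limma adjusted p = 0.000179). Control replicate 3 of experiment 1 was the lowest control of that experiment for all 6 later genes.

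The later genes passed the threshold in each experiment alone. Experiment 1 alone called all 10 genes lower, against 38.3% of all genes, with log2 fold changes of the later genes between −3.77 (Lcn2, limma adjusted p = 0.00926) and −5.29 (S100a9, 0.0236). Experiment 2 alone, with 2 libraries per group, called the 6 later genes and no primary gene lower, against 12.3% of all genes. There the later genes changed by −5.16 (Lcn2, limma adjusted p = 0.0153) to −6.17 (Ltf, 0.0271). In experiment 1 the number of calls fell when replicate 1 labelled Reg1Δ/Δ was left out, to 2 genes, Prtn3 (limma adjusted p = 0.0346) and Lcn2 (0.0317). Without that library the log2 fold changes moved little, for S100a8 from −4.90 to −4.81 and for Ltf from −4.63 to −4.74, and the adjusted p of the other later genes lay between 0.055 and 0.0617. The count was 9 without replicate 2 and 10 without replicate 3, and these 3 fits called 31.0, 33.3 and 33.3% of all genes lower. The size of the changes depended more on these libraries. S100a9 changed by −6.78 without replicate 2 and by −3.63 without replicate 3, and Ltf by −5.97 and −3.18.

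The 4 primary genes were lower in the libraries labelled Reg1Δ/Δ of experiment 1, and of these only Prtn3 passed the threshold over both experiments. The ratio of the mean TPM of the controls to that of the libraries labelled Reg1Δ/Δ was 3.48 to 4.75 in experiment 1 and 0.893 to 1.50 in experiment 2. Without replicate 3 labelled Reg1Δ/Δ, which was the highest of its group for all 4, the ratio of experiment 1 was 8.30 to 13.5. In experiment 1 the groups did not overlap for all 10 genes, which was so for 44.4% of all genes with the libraries labelled Reg1Δ/Δ lower. In experiment 2 this held for the 6 later genes and for Prtn3, against 38.9% of all genes. Of the 10 genes, 7 did not overlap in both experiments, against 31.4% of all genes.

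Mpo encodes myeloperoxidase, the most abundant protein of the primary granule. Mpo (chr11:87793581-87804413, plus strand) was at 1445, 1049 and 1193 TPM in the controls of experiment 1 and at 138, 43.8 and 631 TPM in the libraries labelled Reg1Δ/Δ. Experiment 2 gave 321 and 318 TPM against 364 and 283 TPM. The groups were apart in experiment 1, with a wide spread within the labelled Reg1Δ/Δ group (271 ± 315 TPM, SD, n = 3), and overlapped in experiment 2. The log2 fold change was −2.95 in experiment 1 (limma adjusted p = 0.0295). In experiment 2 it was 0.01, with a 95% confidence interval of −0.52 to 0.54 (limma adjusted p = 1). Over both experiments Mpo missed the threshold (−1.77 ± 0.74 SE, limma adjusted p = 0.0683), and it passed without replicate 3 labelled Reg1Δ/Δ of experiment 1 (−2.15, adjusted p = 0.04).

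Elane and Prtn3 encode neutrophil elastase and proteinase 3 and are neighbours on chromosome 10, 3.072 kb apart on the same strand. Elane was at 333, 269 and 445 TPM in the controls of experiment 1 and at 51.0, 16.5 and 233 TPM in the libraries labelled Reg1Δ/Δ. Experiment 2 gave 182 and 134 TPM against 193 and 158 TPM. Elane thus overlapped between the groups in experiment 2 and not in experiment 1. Its log2 fold change was −2.52 in experiment 1 (limma adjusted p = 0.0483) and 0.16 in experiment 2, with a 95% confidence interval of −0.59 to 0.91 (limma adjusted p = 0.682). Over both experiments it was −1.45 ± 0.71 (SE, limma adjusted p = 0.111).

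Prtn3 was at 276, 203 and 239.8 TPM in the controls of experiment 1 and at 38.2, 16.6 and 96.3 TPM in the libraries labelled Reg1Δ/Δ. Experiment 2 gave 227 and 242 TPM against 174 and 138 TPM. Prtn3 was the 1 primary gene whose groups did not overlap in either experiment. It changed by −1.77 ± 0.49 on the log2 scale over both (SE, limma adjusted p = 0.0124), by −2.55 in experiment 1 (limma adjusted p = 0.0109) and by −0.59 in experiment 2 (95% confidence interval −1.09 to −0.09, limma adjusted p = 0.107). With protein-coding transcripts only, Prtn3 missed the threshold over both experiments (−1.61, limma adjusted p = 0.0997). In experiment 2 the fall lay in transcripts that retain an intron, at 149 and 164 TPM in the controls against 73.1 and 49.7 TPM. The protein-coding transcripts were higher there without overlap, at 71.1 and 72.6 TPM in the controls against 99.4 and 86.8 TPM.

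Ctsg, the gene of cathepsin G (chr14:56099881-56102574, minus strand), was at 179.6, 139 and 171 TPM in the controls of experiment 1 and at 32.5, 6.89 and 101 TPM in the libraries labelled Reg1Δ/Δ. Experiment 2 gave 103 and 77.1 TPM against 112 and 90.0 TPM. As with Mpo and Elane, the groups overlapped in experiment 2 and not in experiment 1. The log2 fold change of Ctsg was −2.45 in experiment 1 (limma adjusted p = 0.0483), 0.17 in experiment 2 (95% confidence interval −0.56 to 0.90, limma adjusted p = 0.657) and −1.40 ± 0.69 over both (SE, limma adjusted p = 0.113).

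An interaction term of genotype and experiment in limma asked whether the response differed between the experiments. Of the 10 genes, 0 passed at an adjusted p under 0.05, against 0.225% of all genes with a smaller fall or larger rise in experiment 2 and 0.217% with the opposite. At an unadjusted limma p under 0.05 there were 2, Mpo (experiment 2 minus experiment 1, 2.96 on the log2 scale, limma adjusted p = 0.37) and Prtn3 (1.96), against 7.99% of all genes at that threshold in the same direction. The adjusted p of the primary genes lay between 0.37 and 0.42, and that of the later genes between 0.668 and 0.925. A difference between the experiments was therefore not established for any of the 10 genes.

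**Figure D2:**
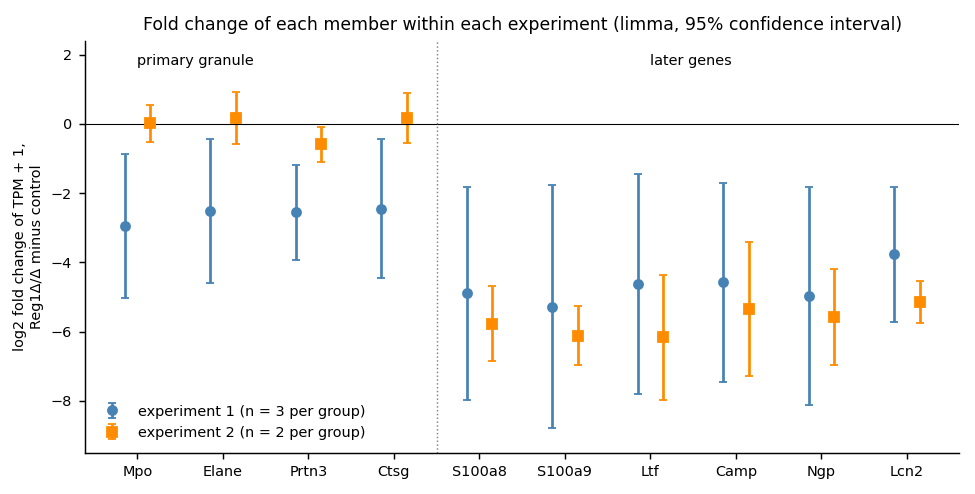
Log2 fold change of TPM + 1, labelled Reg1Δ/Δ minus control, of each gene in experiment 1 (circles, n = 3 per group) and experiment 2 (squares, n = 2 per group), fitted apart with limma; bars are 95% confidence intervals. The 6 later genes lie below −3.5 in both experiments, and the intervals of Mpo, Elane and Ctsg include 0 in experiment 2.

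The primary and the later genes did not move together from library to library. The summed TPM of the 4 primary genes was 2233, 1660.4 and 2049 in the controls of experiment 1, and that of the 6 later genes was 3352, 3964 and 1201. In the libraries labelled Reg1Δ/Δ the primary sums were 260.1, 83.9 and 1061 TPM and the later sums were 84.8, 589.9 and 8.50 TPM. Replicate 2 of this group had the highest value of the 3 libraries for every later gene and the lowest for every primary gene, and replicate 3 had the reverse. The later genes summed to 7.04 times the primary genes in replicate 2, to 0.326 times in replicate 1 and to 0.00801 times in replicate 3. The same-numbered controls of experiment 1 had the same order over a narrower range. Their ratio was 2.39 in replicate 2, 1.50 in replicate 1 and 0.586 in replicate 3. Control replicate 2 was also the lowest control of experiment 1 for each primary gene.

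Experiment 2 showed a large fall of the later sum beside a like primary sum. The primary sums were 833 and 770.2 TPM in the controls and 843 and 669.6 TPM in the libraries labelled Reg1Δ/Δ. The later sums were 11039 and 12978 TPM against 155 and 259 TPM. The ratio of later to primary thus fell from 13.2 and 16.8 in the controls to 0.184 and 0.386, with no overlap. The mean log2 fold change of the primary genes exceeded that of the later genes by 3.49 over both experiments, by 2.07 in experiment 1 and by 5.63 in experiment 2. The value of experiment 1 depended on single libraries in both directions, since it was −0.03 without replicate 3 labelled Reg1Δ/Δ and 4.23 without replicate 2.

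**Figure D3:**
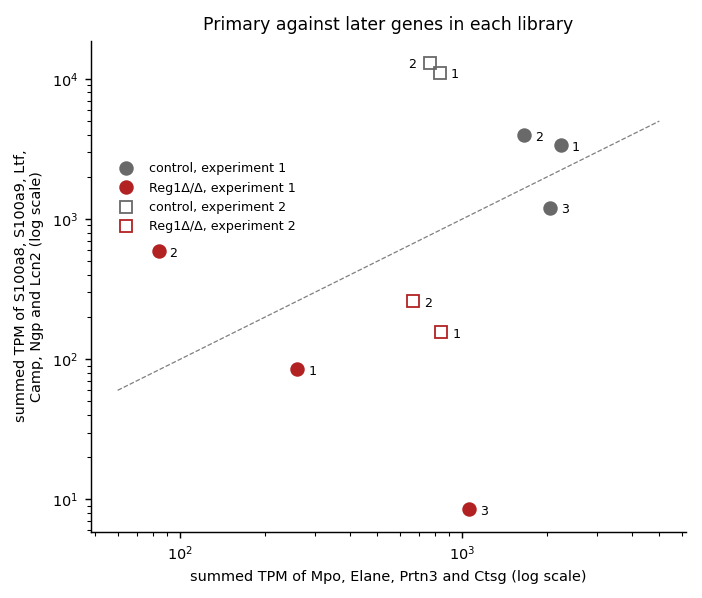
Summed TPM of the 4 primary genes (x axis, log scale) against that of the 6 later genes (y axis, log scale), 1 point per library, numbered by replicate (circles, experiment 1; squares, experiment 2; grey, control; red, labelled Reg1Δ/Δ; the dashed line marks equal sums). Replicates 2 and 3 labelled Reg1Δ/Δ of experiment 1 lie far apart on both axes, on opposite sides of the line.

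Lists of markers of other blood cells were examined beside the granule genes. Of 8 mature neutrophil markers, 4 were tested and 3 of these were lower in the libraries labelled Reg1Δ/Δ, against 37.9% of all genes. These 3 reached 1 TPM in at most 1 library labelled Reg1Δ/Δ and entered the test through the controls, so the count lends no support. Clec4d was the tested marker that missed the threshold (−0.30, limma adjusted p = 0.435). The sum of the 8 was 44.9 to 62.9 TPM in the controls and 5.46 to 14.1 TPM in the libraries labelled Reg1Δ/Δ of experiment 1, and 278 to 335 TPM against 11.3 to 11.6 TPM in experiment 2. Clec4d held most of it in the libraries labelled Reg1Δ/Δ. The sum of the other 7 markers was 35.0 to 55.7 TPM in the controls against 1.26 to 3.48 TPM in experiment 1, and 308 and 268 TPM against 1.06 and 1.26 TPM in experiment 2. Up to 4 of the 8 were at 0 in a library labelled Reg1Δ/Δ, and none was at 0 in a control. Of 6 monocyte markers all 6 were lower, against 37.9% of all genes. Of these 2, Csf1r and Ccr2, reached 1 TPM in 1 library labelled Reg1Δ/Δ and entered the test through the controls. With median-of-ratios scaling 5 were lower, against 26.6% of all genes, and Ly6c2 missed the threshold. The monocyte sums were 156 to 341 TPM in the controls against 14.1 to 193 TPM in experiment 1. The order of the monocyte sums within the labelled Reg1Δ/Δ group, 35.9, 14.1 and 193 TPM, was that of the primary genes, and Ly6c2 alone was at 29.8, 11.0 and 176 TPM there. Of 6 B lineage markers, 5 were tested and all 5 were lower, against 37.9% of all genes. Of these 3 likewise entered through the controls. The B lineage sums were 94.2 to 593 TPM in the controls against 4.91 to 12.7 TPM in experiment 1. Another 3 lists held few genes that could be tested. Of 6 mast cell and basophil markers, 4 were tested and 3 were lower, against 37.9% of all genes. Of 4 eosinophil markers, 1 was tested and lower. The mast cell marker Gzmb and this eosinophil marker, Ear2, each reached 1 TPM in 1 library labelled Reg1Δ/Δ. Both entered the test through the controls, so the eosinophil call lends no support. None of 4 T and NK cell markers passed the filter on low values. Of 6 erythroid markers, 3 were higher, against 15% of all genes, and 2 lower, against 37.9%. The erythroid counts were the same with quantile normalization and with median-of-ratios scaling, against 30.0% and 30.9% of all genes higher. With quantile normalization 2 of the 4 neutrophil markers were lower, as were 1 of the mast cell and basophil markers, with 1 higher, and 0 of the eosinophil markers, against 20.5% of all genes. The sort took lineage-negative cells, a gate meant to remove mature neutrophils, monocytes and B cells. The part of these other cell types in the fall of the granule genes was not tested.

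Other granule genes were examined as lists. Of 10 further primary granule and protease genes, 9 were tested, 6 were lower, 0 higher and 3 missed the threshold, with a median log2 fold change of −1.37, against 37.9% of all genes lower. Quantile normalization left 4 of the 9 lower, against 20.5% of all genes under that setting. The 4 with the highest mean TPM split widely. Lyz2, which encodes lysozyme and is found in several granule types and in macrophages, was at 193 to 392 TPM in the controls of experiment 1 and at 14.3 to 37.7 TPM in the libraries labelled Reg1Δ/Δ, and fell by 4.51 on the log2 scale (limma adjusted p = 1.47e-05). Serpinb1a, an inhibitor of the granule proteases, changed by −2.27 (limma adjusted p = 4.53e-06) and Nkg7 by −0.92 (limma adjusted p = 0.000761). Srgn, the proteoglycan core that packs proteases in granules, was at 752.5 to 1120 TPM against 564 to 753 TPM in experiment 1 and missed the threshold (−0.29, limma adjusted p = 0.121), and its sign turned with median-of-ratios scaling (0.06).

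Of 12 further secondary and tertiary granule genes, 11 were tested and all 11 were lower, against 37.9% of all genes. The medians were −3.36 over both experiments, −2.68 in experiment 1 and −4.35 in experiment 2. Of the 11, 7 reached 1 TPM in at most 1 library labelled Reg1Δ/Δ and so entered the test through the controls, which fixes their direction, and the count and the medians are a description only. Chil3, a chitinase-like protein, was at 91.4 to 698 TPM in the controls and at 2.49 to 136 TPM in the libraries labelled Reg1Δ/Δ of experiment 1, where the groups overlapped through control replicate 3 and replicate 2 labelled Reg1Δ/Δ (−4.95 over both experiments, limma adjusted p = 0.002). Wfdc21 changed by −4.07 (limma adjusted p = 0.000123), Pglyrp1, a peptidoglycan-binding protein, by −2.93 (limma adjusted p = 4.95e-06) and Hp, haptoglobin, by −2.68 (limma adjusted p = 8.68e-05). These 3 did not overlap between the groups in either experiment.

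Of 10 regulators of granulopoiesis, 9 were lower, against 37.9% of all genes, with a median of −1.44. Of these 1, Cebpd, was below 1 TPM in all libraries labelled Reg1Δ/Δ and entered the test through the controls. Myb missed the threshold (−0.28, limma adjusted p = 0.11), turned its sign with median-of-ratios scaling (0.08) and was lower with quantile normalization (−0.42, limma adjusted p = 0.0255). Quantile normalization called 6 of the 10 lower, against 20.5% of all genes, with Myb among them and Cebpa, Cebpb, Cebpd and Cebpe not. Spi1, which encodes PU.1, was at 164, 115 and 106 TPM in the controls of experiment 1 and at 18.4, 17.2 and 32.8 TPM in the libraries labelled Reg1Δ/Δ. Its values in experiment 2 were 78.0 and 74.4 TPM against 11.2 and 11.7 TPM. Spi1 fell in both experiments, by 2.48 (limma adjusted p = 0.000798) and by 2.63 (limma adjusted p = 0.0137) on the log2 scale. Irf8, which favours the monocyte over the granulocyte fate, changed by −2.08 (limma adjusted p = 0.000214) and Runx1 by −1.48 (limma adjusted p = 0.000177). Cebpe, the factor of the specific granule, was named after its values were seen: it was at 0.590 to 1.12 TPM in the controls and 0.0375 to 0.416 TPM in the libraries labelled Reg1Δ/Δ of experiment 1, and at 10.9 and 24.0 TPM against 2.14 and 1.94 TPM in experiment 2 (−1.41, limma adjusted p = 0.00749; 0.124 with quantile normalization). The 3 lists were chosen with results of these libraries known and are no independent evidence of direction.

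**Figure D4:**
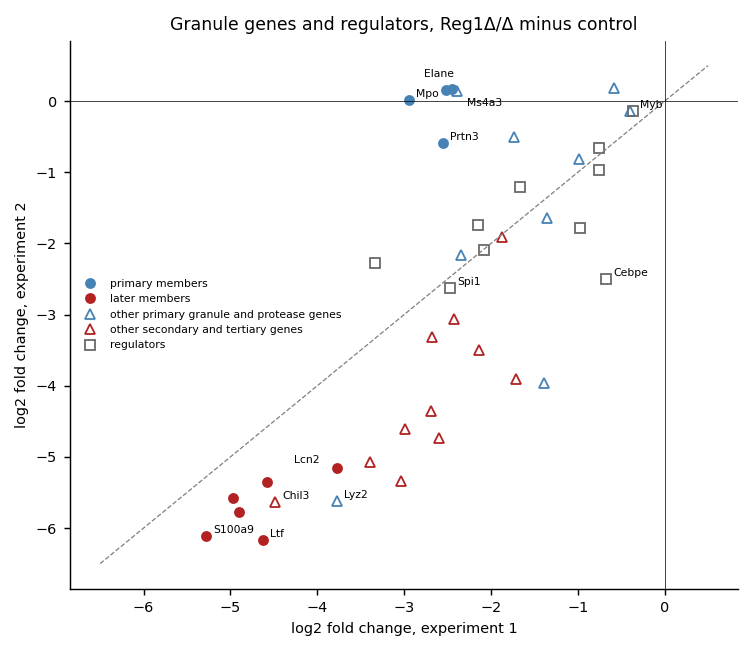
Log2 fold change in experiment 1 (x axis) against experiment 2 (y axis), labelled Reg1Δ/Δ minus control, of the 10 genes (filled circles), the other tested granule genes (triangles) and the regulators (squares); the dashed line marks equal values. Mpo, Elane and Ctsg lie near 0 on the y axis, while Spi1 lies near the line of equal change. Ms4a3, a membrane protein gene on the list of further primary granule and protease genes, also lies near 0 on the y axis.

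The genes most like each class were ranked by Pearson's r of log2(TPM + 1) over the 10 libraries after the experiment means had been removed, so that the shared difference between the groups enters the value. Closest to the mean of the primary genes were Ms4a3 (r = 0.986), Ly6c2 (0.960), Hdc (0.959), RP23-419P16.11 (0.956) and Prss57 (0.953). Ms4a3, a membrane protein of granulocyte-monocyte progenitors, was at 49.3, 52.1 and 59.7 TPM in the controls of experiment 1 and at 8.24, 2.31 and 36.3 TPM in the libraries labelled Reg1Δ/Δ. Experiment 2 gave 33.4 and 45.2 TPM against 50.0 and 36.8 TPM for Ms4a3, which overlapped as Mpo did. Closest to the mean of the later genes were Atf2 (r = 0.983), Chil3 (0.980), Zmat1 (0.975), RP23-406N5.8 (0.974) and Tmco3 (0.970). Ms4a3, Prss57, Ly6c2 and Chil3 also stand in lists used here.

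The transcripts that made up 2 of the genes differed between experiments and groups. Prtn3 had 6 annotated transcripts, of which 3 retain an intron and so do not encode the protease. Those 3 held 46.0 to 57.2% of the Prtn3 TPM in the controls and 41.1 to 81.7% in the libraries labelled Reg1Δ/Δ of experiment 1. In experiment 2 they held 65.7 and 68.1% in the controls against 42.1 and 35.9% in the libraries labelled Reg1Δ/Δ. The 1025-base coding transcript alone was at 71.1 and 69.8 TPM in the controls of experiment 2 and at 98.4 and 86.8 TPM in the libraries labelled Reg1Δ/Δ, the opposite direction to the gene's sum.

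Ltf had 12 annotated transcripts. A coding fragment of 233 bases held 60.1 to 61.0% of the Ltf TPM in the controls of experiment 1 and was at 0 in all libraries of experiment 2. The 2743-base coding transcript was at 41.6, 38.9 and 13.1 TPM in the controls of experiment 1 and at 0.728, 6.04 and 0 TPM in the libraries labelled Reg1Δ/Δ. Experiment 2 gave 194 and 252 TPM against 1.96 and 3.31 TPM for it. The direction of Ltf was thus the same for its longest transcript, while the level of the gene's sum in experiment 1 came mostly from short annotated fragments. Over whole libraries, protein-coding transcripts held 46.2 to 49.1% of the TPM in experiment 1 and 73.5 to 81.1% in experiment 2. The groups are therefore compared within an experiment.

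**Figure D5:**
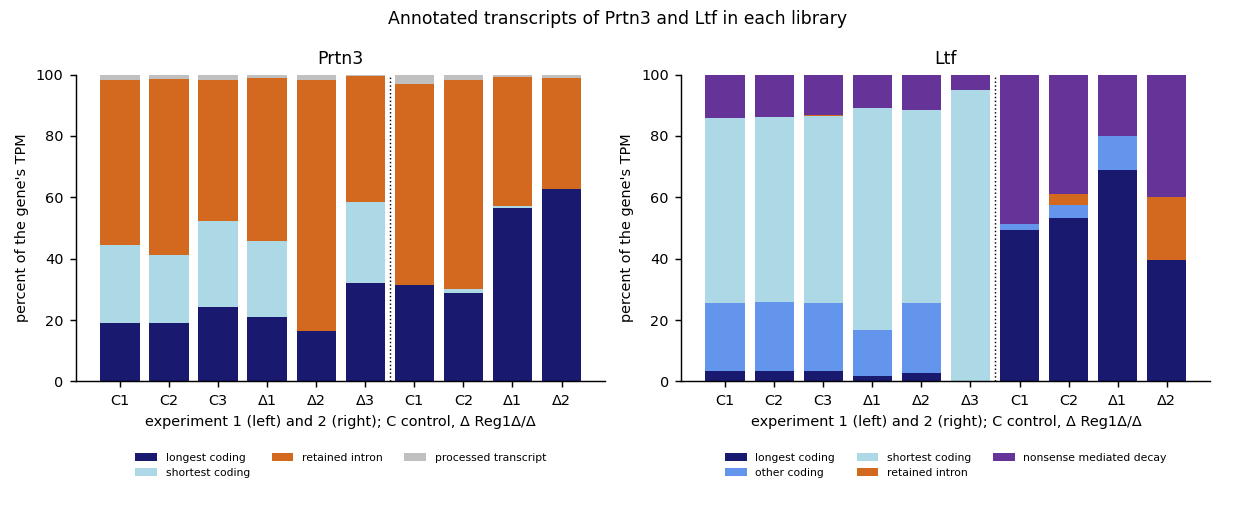
Percent of the TPM of Prtn3 (left) and Ltf (right) by kind of annotated transcript, 1 bar per library (C, control; Δ, labelled Reg1Δ/Δ; experiment 1 left and experiment 2 right of the dotted line). Retained-intron transcripts of Prtn3 hold 65.7 and 68.1% in the controls and 42.1 and 35.9% in the libraries labelled Reg1Δ/Δ of experiment 2, and the shortest coding fragment of Ltf is absent from experiment 2.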

How the data were processed

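CD34- HSC RNA of 5 mice labelled control and 5 labelled Reg1Δ/Δ was measured. The authors made cDNA with a SMART kit (its version differs between the labels and the study's methods), aligned reads with STAR to GRCm38, estimated TPM with Salmon 0.9.1 on GENCODE transcripts, and deposited 1 log2 value per transcript, of TPM plus 1. Here TPM was recovered, summed per gene and tested with limma 3.58.1 in R 4.3.3 on log2(TPM + 1), since the files hold no counts. Genes with at least 1 TPM in at least 5 of 10 libraries entered (12874). All 10 members passed, and each reached 1 TPM in at least 4 of the 5 libraries labelled Reg1Δ/Δ. The experiment was a covariate, p-values were adjusted by Benjamini-Hochberg over all genes tested, and the threshold was 0.05. Fold changes include the pseudocount of 1 and understate low genes. Fold changes in TPM are relative to each library's total. The members, lists and motifs were chosen with earlier results of these data known. Named beyond the members were Zc3h12a, the 4 genes of highest mean TPM of each granule list and the 5 genes most like each class. In the marker lists, genes were named after their values were seen. Experiments were assigned from the style of the sample names and the study's numbers of mice. The file of replicate 2 labelled Reg1Δ/Δ of experiment 2 carries the name of replicate 1 in its header but other values, and was used as replicate 2. No 2 libraries were identical (highest correlation 0.983). Gene positions come from GENCODE M21 (GRCm38). The fits were tested on simulated data. Alternatives were other filters, pseudocounts, scalings, covariates, transcript classes and left-out libraries.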

Additional observations from a re-analysis of the deposited data

Results flagged for a closer look

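Ltf in replicate 2 labelled Reg1Δ/Δ of experiment 1 stood apart from the other libraries of its genotype, at 215 TPM against 2.85 to 38.2 TPM in the other 4. Its gap to the nearest library was 0.834 of the range of the 5 libraries, above Dixon's critical value of 0.71. Over the 10 genes and both genotypes, 20 groups were examined, 1 was past the critical value, and chance alone gives about 1. Without this library Ltf changed by −6.06 on the log2 scale (limma adjusted p = 9.92e-05), against −5.25 with it. The group spans both experiments, whose levels differ.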

How the results depend on the processing

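The 6 later genes were lower and past the threshold under the alternatives run, except that experiment 1 without replicate 1 labelled Reg1Δ/Δ, an alternative added after seeing the data, left S100a8, S100a9, Ltf, Camp and Ngp at adjusted p = 0.055 to 0.0617 and 2 of the 10 genes called lower, and that a filter of 1 TPM in every library kept 6 of the 10 for testing and called 4. Experiment 2 alone turned the sign of Mpo (0.010), Elane (0.16) and Ctsg (0.17), none past the threshold. In experiment 1 without replicate 3 labelled Reg1Δ/Δ the difference of the primary from the later genes was −0.033. Leaving out each library in turn from both experiments gave 7 to 8 genes lower, 0 to 0 higher, 0 to 0 with an interaction, 6043 to 7203 genes called in all and a difference of primary from later of 2.54 to 4.86. Where an arm of experiment 2 had 1 library left, it was assumed to vary like the other groups. Mpo passed with a filter of 1 TPM in every library (adjusted p = 0.0411), with quantile normalization (0.0487) and without replicate 3 labelled Reg1Δ/Δ of experiment 1 (0.04).

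All genes called numbered 6813, 3768 with no experiment covariate and 2033 in experiment 2 alone. Quantile normalization moved the median of all genes by 0.40 and gave 2636 genes lower and 3861 higher, and median-of-ratios scaling moved it by 0.30 and gave 3425 and 3973, against 4880 and 1933. Under these scalings 8 and 7 of the 10 genes were called lower and none of the 10 turned its sign. The cause of these changes was not tested.

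Over all genes tested, the deviations of same-numbered libraries correlated at r = 0.03, 0.18 and 0.07 in experiment 1 and −0.05 in experiment 2. A value over all genes cannot show whether the replicate numbers pair the samples for the 10 genes. With a replicate block, 7 of the 10 genes were lower, with 4545 genes lower and 1703 higher in all. The block lowered the standard error of each later gene, for S100a8 from 0.85 to 0.48 and for Camp from 0.81 to 0.51. The primary genes moved less, for Mpo from 0.735 to 0.743 and for Elane from 0.706 to 0.649. Without read numbers, depth sets no interval here, and values below 1 TPM are the least certain.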

Other observations

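The levels of the granule genes in the controls are given side by side for the experiments, with no test. Mpo was at 1229 ± 200.2 TPM (SD, n = 3) in experiment 1 and at 319 ± 2.05 TPM (SD, n = 2) in experiment 2, and Ctsg at 163 ± 21.2 and 90.1 ± 18.4 TPM. S100a9 was at 506 ± 234 and 6063 ± 282 TPM, Ngp at 257 ± 137 and 1289.7 ± 324 TPM, and Lcn2 at 76.2 ± 34.3 and 481 ± 92.5 TPM. Prtn3 was at 239 ± 36.8 and 234 ± 10.1 TPM. Ltf was at 936 ± 466 and 433 ± 54.8 TPM, while its 2743-base transcript was at 13.1 to 41.6 and at 194 and 252 TPM. The experiment and the make-up of the libraries by transcript type cannot be told apart here.

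The 10 genes together made up 0.325 to 0.562% of the TPM in the controls of experiment 1 and 1.19 to 1.37% in those of experiment 2, against 0.0345 to 0.107% and 0.0928 to 0.0998% in the libraries labelled Reg1Δ/Δ. A transcript of Mpo annotated as subject to nonsense-mediated decay was at 117 to 185 TPM in the controls of experiment 1 and at most at 0.372 TPM in experiment 2.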
